A study of Mus musculus with 4 samples.

Results

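The data describe 35 imprinted mouse genes in 4 lines of LMTK- cells, a thymidine kinase-deficient mouse fibroblast line of L cell origin. The genes were taken from a list of imprinted genes, and every probe set that the platform annotation paired with 1 of them alone was used. This gave 89 probe sets for 32 genes, out of 18193 genes with such a probe set on the array. H19, Dio3 and Zrsr1 had no such probe set and are not among the 32. A further 8 probe sets were paired with a listed gene together with another gene and were given no gene name. Of these, 6 were paired with both Snurf and Snrpn, which share a transcript, and 2 of the 6 were above the silent level (defined below) on all 4 arrays. The 1 paired with H19 and Mir675 was above that level on no array.

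All 4 lines were stably transfected with the mammalian expression vector pCI-neo, in which a viral promoter drives the insert. The 2 vector lines (vector 1 and vector 2) carried the empty vector. The 2 MTf clones (MTf 4 and MTf 6) carried it with the cDNA of mouse melanotransferrin, a membrane-anchored iron-binding protein. Each line was hybridised once to an Affymetrix Mouse Genome 430 2.0 Array, and each MTf line is 1 numbered clone. Whether the vector lines are clones or separate cultures is not given in the sources used here. The p-values therefore cover only the spread among these 4 samples, part of which may be technical. Signals of the vector lines are given below with vector 1 first, and those of the clones with MTf 4 first.

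Imprinted genes are expressed from the copy inherited from 1 parent, a choice that goes back to DNA methylation set in the germ line. They lie in clusters that share a control region, and each cluster often pairs growth-promoting genes of the paternal copy with growth-limiting genes of the maternal copy. Many are high in the embryo and placenta and are shut down after birth, and long-term culture is known to disturb their regulation. The array sums the RNA of both copies, so the values below say nothing of which copy was used. In a bulk RNA sample, fewer expressing cells and less RNA per cell cannot be told apart.

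Meltf, the gene of melanotransferrin, had signals of 265 and 274 in the vector lines and of 1519 and 1885 in the clones, where the labels place its cDNA (log2 difference 2.52, SE 0.24, adjusted p = 0.0903 by limma). Of 10 fibroblast markers, 9 had a probe set above the silent level on all 4 arrays, among them Vim, Col1a2 and Fn1, while Thy1 had none. The same held for 2 of 6 macrophage, 1 of 4 epithelial, 2 of 4 muscle, 2 of 3 adipocyte, and for 0 of 3 endothelial, 0 of 4 melanocyte and 0 of 4 pluripotent or germ cell markers. The summed signal of the fibroblast markers ran from 222173 in vector 1 to 299465 in MTf 4, and that of the macrophage markers from 1357 in MTf 6 to 2265 in MTf 4. Those above it were macrophage Csf1r (289 to 762) and Lyz2 (275 to 767), epithelial Krt8 (419 to 572), muscle Des and Acta1, and adipocyte Fabp4 (8333 to 12040) and Pparg (1657 to 2170). Macrophage Ptprc and Itgam, endothelial Pecam1, epithelial Cdh1 and Krt18, muscle Myog and adipocyte Adipoq were below the level on every array. So were melanocyte Dct and Mlana and the 4 pluripotent or germ cell markers. Macrophage Adgre1 and endothelial Kdr were above it on 3 arrays and macrophage Cd68 on 2. Endothelial Cdh5, muscle Myod1 and melanocyte Tyr and Pmel were above it on 1 each. Epithelial Epcam was above it in the clones alone, at 325.5 and 404.7, against 130.5 and 40.1 in the vector lines. The part of other cell types in the results was not tested.

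More of the 32 imprinted genes measured were silent in these fibroblasts than were expressed in all 4 lines. A probe set was counted as above the silent level where its signal exceeded the 95th percentile of 80 probe sets of olfactory and vomeronasal receptors on the same array, genes that fibroblasts are not known to use. This level was a signal of 292.6 and 231.0 on the arrays of the vector lines and of 232.5 and 203.6 on those of the clones. Of the 32 imprinted genes, 9 (28.1%) had a probe set above the level on all 4 arrays, against 50.7% of all genes on the array. A further 17 (53.1%) were above it on no array, against 35.2% of all genes. The other 6 were above it in some lines only. With the 99th percentile as the level 22 were above it on no array and 7 on all 4, and with the median of each array 15 and 10. Airn, Peg3 and Plagl1, silent by the main level, exceeded the median on at least 1 array, with highest signals of 224.3, 224.5 and 229.2. Rian, above the main level in MTf 6, did not exceed the median on any array. By probe set, 15 of 89 (16.9%) were above on all 4 arrays, against 40.8% of all probe sets. Of the receptor probe sets themselves, 12 of 80 exceeded the level on at least 1 array and 1 on all 4, so a gene above it in 1 line only is not distinguished from an unexpressed one.

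**Figure D1:**
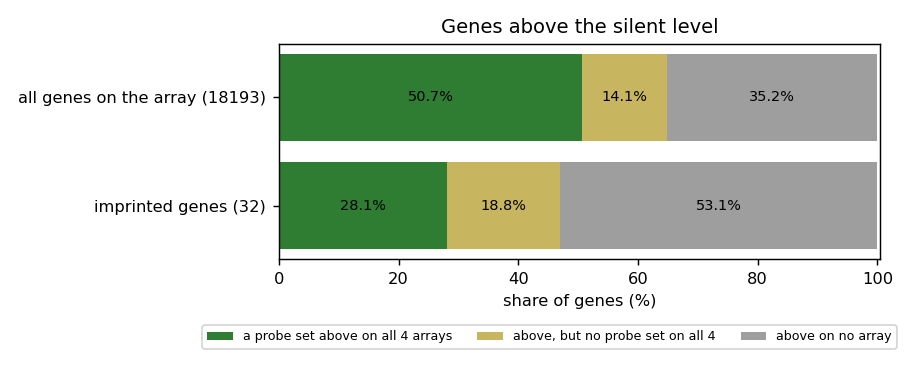
Share of genes (x axis, percent) with a probe set above the silent level on all 4 arrays, above it but with no probe set above on all 4, and above it on no array. The upper bar is all 18193 genes of the array and the lower bar the 32 imprinted genes, of which 28.1% were above on all 4 arrays and 53.1% on none.

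The expressed genes came from both parental classes, sorted here by the copy that is known to be used in at least some tissues. Of 11 genes of the maternal copy, 5 had a probe set above the level on all 4 arrays (Igf2r, Meg3, Slc22a18, Tssc4 and Cd81) and 4 were above it on none. Of 18 genes of the paternal copy, 2 were above it on all 4 arrays (Mcts2 and Impact) and 12 on none. Ube3a, Gnas and Grb10 use 1 copy in some tissues only or change copy with the tissue. The first 2 of these were above the level on all 4 arrays and Grb10 was not above it on any. These are counts of genes with no test.

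**Figure D2:**
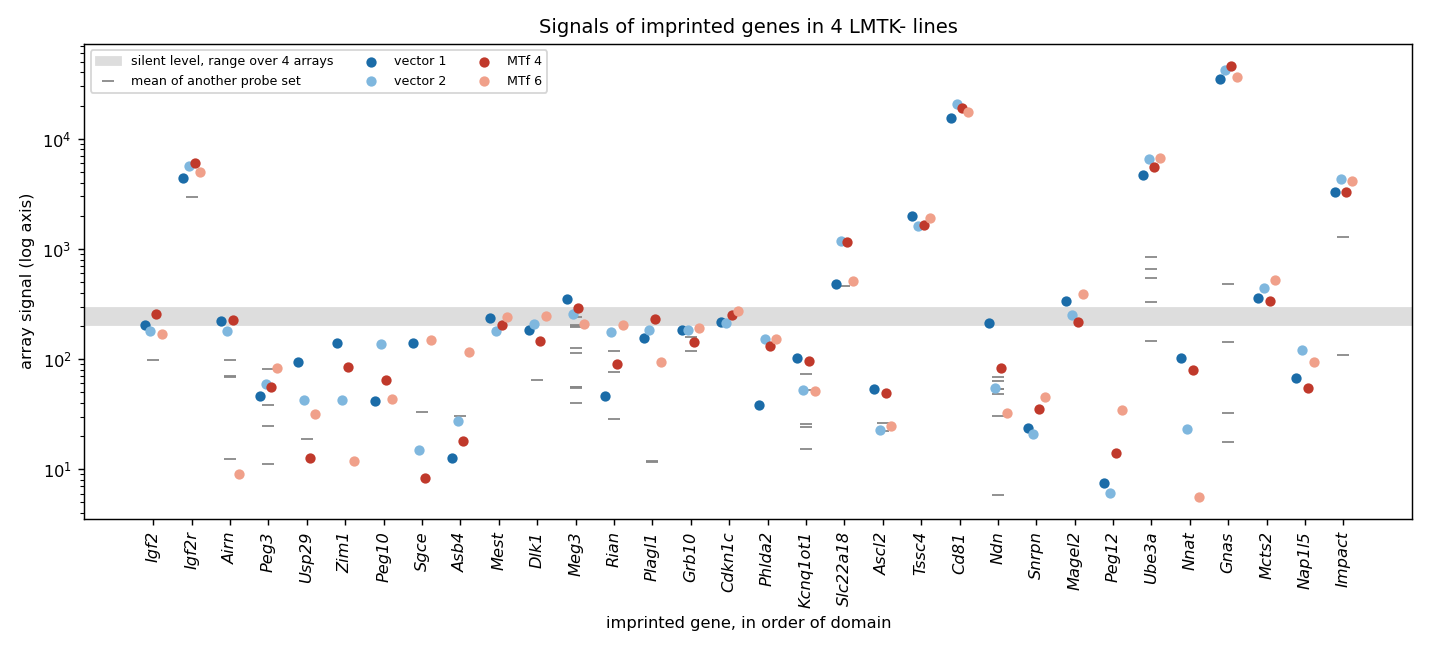
Array signal (log axis) of the 32 imprinted genes. Coloured points are the 4 lines by the probe set with the highest mean, grey dashes the mean of each other probe set, and the grey band the range of the silent level over the arrays. Gnas, Cd81, Igf2r, Ube3a, Impact and Tssc4 stand far above the band in all 4 lines, and Peg12 and Ascl2 far below it. Signals of different probe sets are not levels that can be set against each other.

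Promoter sequences are shown for an expressed gene, for the gene that differed most between lines, and for 2 silent genes. Their CpG sites are marked, since DNA methylation falls on CpG. Whether a window holds the control region of its cluster was not determined here. Each is the RefSeq window of GRCm38.p6 from 250 bases before to 50 bases after a gene start, 5′ to 3′ on the strand of the gene, with each CpG (the letters CG, the same on both strands) in capitals. Igf2r lies at chr17:12769657-12769956 on the minus strand, Slc22a18 at chr7:143473539-143473838 on the plus strand, Peg3 at chr7:6730370-6730669 on the minus strand and Nnat at chr2:157559828-157560127 on the plus strand.
Igf2r: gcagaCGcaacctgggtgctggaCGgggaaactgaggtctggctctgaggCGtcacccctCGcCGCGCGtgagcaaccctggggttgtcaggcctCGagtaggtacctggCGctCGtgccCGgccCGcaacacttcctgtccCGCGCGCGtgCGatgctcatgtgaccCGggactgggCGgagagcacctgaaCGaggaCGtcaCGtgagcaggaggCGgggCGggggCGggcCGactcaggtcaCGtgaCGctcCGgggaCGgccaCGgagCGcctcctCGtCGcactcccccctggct
Slc22a18: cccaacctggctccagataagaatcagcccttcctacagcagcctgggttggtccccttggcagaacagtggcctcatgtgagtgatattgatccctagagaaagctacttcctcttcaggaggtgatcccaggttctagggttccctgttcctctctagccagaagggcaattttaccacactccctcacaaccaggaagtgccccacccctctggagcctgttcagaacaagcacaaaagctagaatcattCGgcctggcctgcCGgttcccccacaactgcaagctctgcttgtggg
Peg3: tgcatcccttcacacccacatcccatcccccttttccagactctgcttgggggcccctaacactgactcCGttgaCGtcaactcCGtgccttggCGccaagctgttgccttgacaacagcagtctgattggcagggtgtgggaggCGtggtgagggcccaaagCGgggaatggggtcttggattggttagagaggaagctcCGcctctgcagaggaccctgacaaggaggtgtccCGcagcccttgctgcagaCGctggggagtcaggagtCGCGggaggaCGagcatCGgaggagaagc
Nnat: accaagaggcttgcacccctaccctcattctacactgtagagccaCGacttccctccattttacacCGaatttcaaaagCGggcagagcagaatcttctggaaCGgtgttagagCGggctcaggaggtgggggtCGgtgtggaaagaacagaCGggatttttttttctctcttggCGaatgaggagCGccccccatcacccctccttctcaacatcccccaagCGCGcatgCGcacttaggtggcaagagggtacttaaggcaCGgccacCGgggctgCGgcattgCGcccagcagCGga

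Igf2r, expressed in all 4 lines, held 34 CpG in this window, and Slc22a18, whose signal varied most, held 2. The silent genes Peg3 and Nnat held 13 and 17. The window of Peg3 shares 263 bases with that of Usp29, its neighbour on the opposite strand, and both genes were below the silent level in every line. The windows show the reference genome and not the methylation of these cells, which was not measured.

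Most silent imprinted genes with a promoter window held at least 10 CpG in it, a share near that of all array genes. Promoter windows were found for 28 of the 32 genes, and for genes with several the one with the most CpG was taken. At least 10 CpG were held by 11 of 15 imprinted genes that were above the silent level on no array (73.3%, median 17). Over all genes of the array above it on no array this share was 43.6%, with a median of 8. For the imprinted genes above the level on all 4 arrays it was 7 of 8 (87.5%, median 24), against 90.0% and a median of 23 for all array genes of that class. The share was 69.9% over all array genes with a window (median 18) and 45.8% over all 27025 genes with a window (median 8). Grb10, with 45, and Plagl1 and Phlda2, with 26 each, were the silent imprinted genes with the most CpG, and Airn, with 3, the one with the fewest. These are descriptions of the sequence and carry no test.

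**Figure D3:**
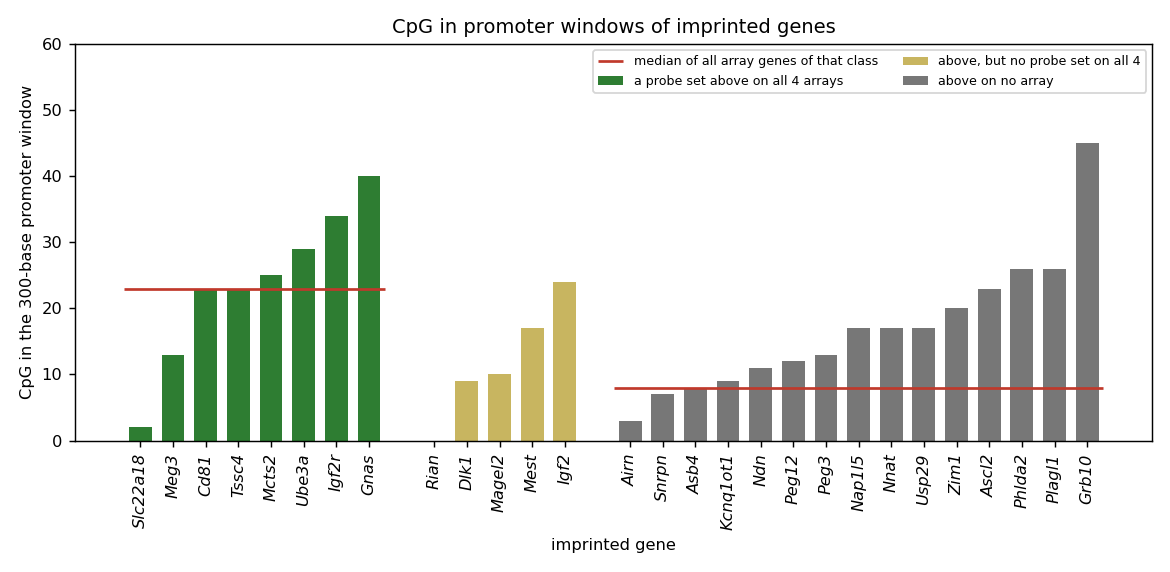
Number of CpG in the 300-base promoter window (y axis) of 28 imprinted genes, grouped by their signal against the silent level; red lines are the medians of all array genes of the same class, 23 and 8. Most silent imprinted genes reach above the lower line, and Slc22a18 is far below the upper one.

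In the cluster of Igf2r, which encodes the receptor that takes up insulin-like growth factor 2 for degradation, the receptor was expressed in all 4 lines. By its probe set 1424112_at, Igf2r was at 4413 and 5667 in the vector lines and at 6002 and 5028 in the clones. By the other it was at 2536 and 3197 in the vector lines and at 3647 and 2361 in the clones. The groups overlapped on both, and vector 1 was below vector 2 on each. Airn, the long non-coding RNA that silences the paternal copy of Igf2r, was below the silent level on all 4 arrays by all 5 of its probe sets, with a highest signal of 224.3. Igf2 itself, the growth factor, lies in another cluster, with H19 on chromosome 7. By 1 of 2 probe sets it was above the silent level in MTf 4 alone. By that probe set it was at 203 and 181 in the vector lines and at 256 and 169 in the clones. These signals lie close to the level in every line.

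In the Kcnq1 cluster of chromosome 7, 3 genes were expressed in all 4 lines and their non-coding regulator was below the silent level. Cd81, a tetraspanin of the cell surface, was at 15384 and 20481 in the vector lines and at 19042 and 17676 in the clones. Tssc4, the third expressed gene beside Slc22a18, was at 2007 and 1619 in the vector lines and at 1657 and 1890 in the clones. Vector 1 was thus lowest for Cd81 and highest for Tssc4, and the clones lay between the vector lines for both. Kcnq1ot1, the long RNA that silences the paternal copy of the cluster, was below the silent level by all 6 probe sets, with a highest signal of 122.9. Ascl2, a transcription factor of the placenta, and Phlda2, which limits placental growth, were silent too, with highest signals of 62.4 and 153.3. Cdkn1c, the cell cycle inhibitor p57, was near the level, at 219 and 213 in the vector lines and 249 and 274 in the clones.

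Slc22a18, which encodes a transporter-like membrane protein, differed most between lines. By 1427531_a_at its signals were 483 and 1189 in the vector lines, and 1147 and 515 in the clones. By 1417809_at they were 41.6 and 824 in the vector lines, and 571 and 404 in the clones. Vector 1 was lowest by both probe sets and vector 2 highest, and the clones overlapped the vector lines. Vector 2 was 2.37-fold above vector 1 by the first, on the scale of log2(signal + 32). By the second the signal of vector 1 was below its silent level, and vector 2 was at least 2.64-fold above that level on the same scale. MTf 6 was 2.16-fold below MTf 4 by the first and 1.38-fold by the second. Tnfrsf23, a decoy receptor gene of the cluster that is not on the list, was also lowest in vector 1, at 353, against 708 in vector 2 and 652 and 610 in the clones. Nap1l4, also of this cluster, lay between 4910 and 5354 in all 4 lines.

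In the cluster of Snrpn, whose loss in humans gives Prader-Willi syndrome, Ndn and Peg12 were silent and the signals for Snrpn were mixed. Ndn, which encodes the growth suppressor necdin, was below the silent level by all 8 probe sets on every array, with a median signal of 51.9. Peg12 was at 34.3 at most, and the only probe set paired with Snrpn alone at 44.9 at most. Snrpn is counted as silent by that probe set, but the 6 probe sets paired with both Snurf and Snrpn gave unlike signals. One of them, 1415895_at, was at 2134 and 2197 in the vector lines and 801 and 1680 in the clones, and 1415896_x_at was at 301 and 307 in the vector lines and 288 and 268 in the clones. Both were above the silent level in every line, 3 others were above it in none, and the silence of Snrpn is therefore not settled. Magel2, a regulator of ubiquitin ligases, was at 337 and 249 in the vector lines and 215 and 388 in the clones, above the level in each line but MTf 4. Ube3a, a ubiquitin ligase that uses the maternal copy in neurons and both copies in most other cells, was above the level on all 4 arrays by 4 of 6 probe sets. By the probe set with the highest mean it was at 4680 and 6598 in the vector lines and 5601 and 6707 in the clones, and the groups overlapped.

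Gnas, which encodes the stimulatory G protein alpha subunit and has several promoters with different imprints, gave unlike signals by its probe sets. By 1450186_s_at the vector lines were at 34657 and 41724 and the clones at 46228 and 36335. By 1453413_at the vector lines were at 337 and 544 and the clones at 494 and 536. Vector 1 was lowest by both. The other 3 probe sets were below the silent level on every array. Which transcripts each probe set measures was not determined here.

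Of the imprinted genes outside large clusters, Impact and Mcts2 were expressed. Impact, which dampens the Gcn2 arm of the stress response, was at 3307 and 4342 in the vector lines and 3307 and 4131 in the clones by 1415911_at. Mcts2, a retrogene copied from an X-linked translation factor gene, was at 362 and 442 in the vector lines and 337 and 520 in the clones, and its probe set may also read RNA of the near-identical parent gene. Nap1l5, another retrogene, was at 122 at most, and Nnat, a proteolipid of the endoplasmic reticulum, at 102 at most.

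Other well-known imprinted genes, mostly of the paternal copy, were silent or near the silent level. Among those below, Zim1 and Asb4 are of the maternal copy, and the copy used for Grb10 depends on the tissue. Peg3, a zinc finger protein of growth and maternal behaviour, was below the silent level by all 5 probe sets, with a median signal of 17.5 and a highest of 224.5 in vector 2. Its neighbours Usp29 and Zim1 reached 94.6 and 141.0 at most. Peg10, a gene derived from a retrotransposon that the placenta needs, reached 136.2, and its neighbours Sgce and Asb4 148.2 and 116.8. Plagl1, a transcription factor that regulates other imprinted genes, was below the level by all 3 probe sets, as was Grb10, an adaptor that restrains insulin receptor signalling. Mest was near the level, at 237 and 179 in the vector lines and 203 and 241 in the clones, and exceeded it in MTf 6 alone. Over the 17 silent genes the 46 probe sets had a median signal of 43.0, and the receptor probe sets had medians of 54.5 to 58.5 per array.

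In the Dlk1-Dio3 cluster, signals were close to the silent level. Meg3, a long non-coding RNA of the maternal copy, had 11 probe sets, of which 1 exceeded the level on all 4 arrays and 5 on none. That probe set (1439380_x_at, a type that may also bind other transcripts) was at 351 and 257 in the vector lines and 288 and 210 in the clones, little above the level on each array. A gene with 11 probe sets has more chances to exceed the level than a gene with 1. Rian, another RNA of the cluster, exceeded it in MTf 6 alone by 1 of 4 probe sets, and Dlk1, a Notch-related membrane protein that holds back adipocyte formation, in MTf 6 alone by 1 of 2. MTf 6 has the lowest silent level of the arrays.

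The order of the lines by their count of expressed imprinted genes depended on the silent level. Genes above the silent level numbered 10 in each vector line, 11 in MTf 4 and 14 in MTf 6. The level itself was lowest in MTf 6, where 50.6% of all probe sets exceeded it, against 43.7% in vector 1, 48.4% in vector 2 and 48.0% in MTf 4. With the 99th percentile of the receptor probe sets in its place the counts were 7 and 8 in the vector lines and 9 in each clone, and with the array median they were 13 and 11 in the vector lines and 14 and 13 in the clones.

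Among tested probe sets paired with 1 imprinted gene alone, lines of a group differed at least 2-fold only at Slc22a18. Of the 22 imprinted probe sets whose mean passed the filter on low signals, of 13 genes, 2 differed at least 2-fold between the vector lines (9.1%, against 3.33% of all tested probe sets), and both were of Slc22a18. Between the clones 1 did, 1427531_a_at of Slc22a18 (4.5%, against 4.77% of all). After quantile normalization none differed at least 2-fold between the clones. The median size of the difference was 0.34 between the vector lines and 0.30 between the clones on the log2 scale, against 0.24 and 0.29 over all tested probe sets. With 1 array per line, such differences have no check against replicates. The filter left out 67 of the 89 probe sets, with all probe sets of 19 genes. Of these, 6 exceeded the silent level on at least 1 array and 0 on all 4, and their highest signal was 322.2. Probe sets paired with several genes are not in these counts. Of those paired with both Snurf and Snrpn, 1415895_at was at 801 in MTf 4 and 1680 in MTf 6. By 1415896_x_at the clones were at 288 and 268.

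**Figure D4:**
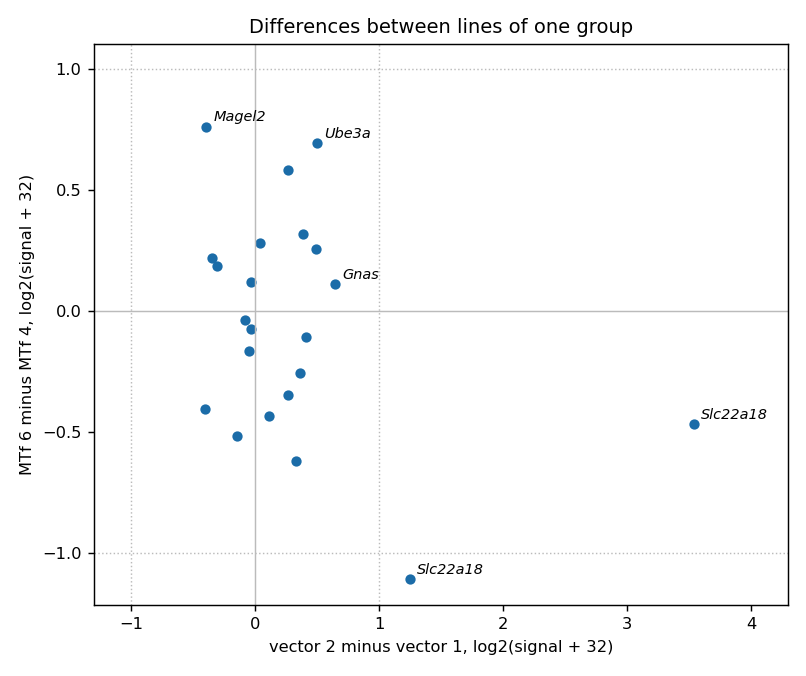
Difference of vector 2 minus vector 1 (x axis) against MTf 6 minus MTf 4 (y axis) on the log2(signal + 32) scale, with 1 point for each of the 22 tested imprinted probe sets; dotted lines mark 2-fold differences. Both probe sets of Slc22a18 lie beyond 2-fold on the x axis and only 1 of them on the y axis.

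Between the clones and the vector lines no imprinted probe set was called. With limma over all 22519 tested probe sets, 0 of the 22 passed the adjusted threshold of 0.05, and 0 had an unadjusted p under it. Over all tested probe sets 1 was called (0.00444%), the probe set 1416295_a_at, which is unnamed here, and 428 had an unadjusted p under the threshold. All 22 adjusted p-values were 1.00 by limma, and log2 differences ran from -0.41 to 1.03, with a median of 0.08 against -0.01 for all tested probe sets. The log2 difference was 0.13 for Igf2r (95% interval -0.35 to 0.62), 0.05 for Cd81 (-0.40 to 0.49), 0.11 for Gnas (-0.32 to 0.54) and 0.14 for Ube3a (-0.38 to 0.66), each by the probe set with the highest mean. For Slc22a18 it was 0.02 (-1.11 to 1.14) and 1.03 (-1.21 to 3.27) by its probe sets, intervals that hold differences of more than 2-fold either way. The second rests on the signal of vector 1 that is below its silent level. Without vector 1 the first of these was -0.60 and without MTf 4 it was -0.54.

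Groups did not overlap for 5 of the 22 probe sets (22.7%), against 25.8% of all tested probe sets. Both clones were higher for Cdkn1c, 1426758_s_at of Meg3 and 1431224_at of Ube3a, and both were lower for 1416681_at of Ube3a and 1446750_at of Impact. The log2 differences of the 2 probe sets of Ube3a were 0.55 and -0.41, so they point opposite ways within 1 gene. Those of Meg3 did as well, at 0.33 by 1426758_s_at and -0.26 by 1439380_x_at. Those of Impact were -0.29 by 1446750_at and -0.04 by 1415911_at. The share of non-overlapping probe sets is near the background. Probe sets paired with both Snurf and Snrpn are not among the 22. By 1415895_at and 1415896_x_at of these, both clones were below both vector lines.

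**Figure D5:**
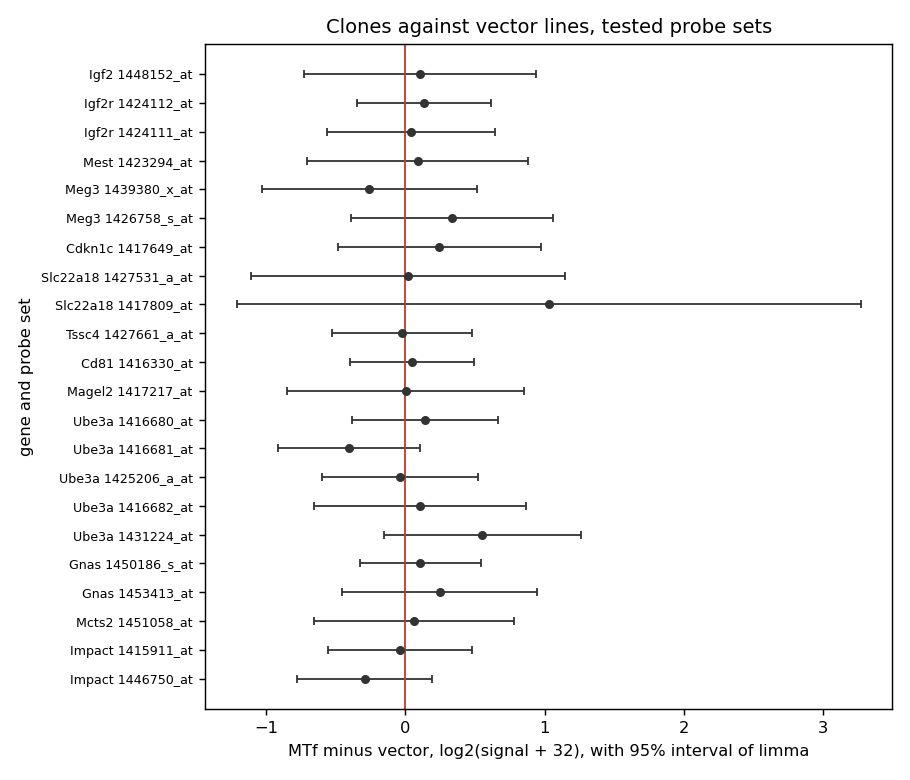
Log2 difference of the MTf clones minus the vector lines (x axis) with the 95% interval of limma, for each of the 22 tested imprinted probe sets. All intervals hold 0, and the widest is that of 1417809_at of Slc22a18, from -1.21 to 3.27.

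Other imprinted genes and neighbours of imprinted genes were mixed. Of 43 on a list, 37 had a probe set. Of these, 17 (45.9%) had one above the silent level on all 4 arrays, against 50.7% of all genes. A further 14 of the 37 were above it on no array, where the share of all genes was 35.2%. The share above on all 4 arrays was thus nearer to that of all genes than the 28.1% of the main list. Of 19 tested, 6 were higher and 13 lower in the clones, and 0 were called by limma, with 1 at an unadjusted p under 0.05. That gene was Tspan32, a tetraspanin gene of the Kcnq1 cluster, at 848 and 957 in the vector lines and 551 and 616 in the clones (log2 difference -0.60, adjusted p = 1.00 by limma). The next smallest p-values belonged to the paraoxonase gene Pon2 (-0.27), the lipid flippase gene Atp10a (-0.33) and Pon3 (-0.26). Imprinted retrogenes sit inside host genes, and the hosts were not alike. H13, the host of Mcts2, had signals of 5850 to 7342, and Commd1, the host of Zrsr1, of 9231 to 10633, while Herc3, the host of Nap1l5, was below the silent level on every array. The tRNA synthetase gene Wars and the amino acid transporter gene Slc38a4 were above it on all 4 arrays, at 9181 to 13750 and 5627 to 8158.

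Genes that maintain imprints and silent chromatin were mostly expressed. Of 25 measured, 19 (76.0%) had a probe set above the silent level on all 4 arrays, against 50.7% of all genes. Trim28, the corepressor of zinc finger proteins, lay between 6449 and 7802, and Zfp445, a zinc finger protein that protects imprints, between 4615 and 6202. Zfp57, the other such protein, was at 51.3 at most. Dnmt3a, Tet3 and Zfp57 were the 3 genes of the list above the silent level on no array. Uhrf1, which brings the maintenance methylase to new DNA, was at 7942 and 4048 in the vector lines and 3162 and 6231 in the clones. Dnmt1, that methylase, was at 4401 and 2906 in the vector lines and 2891 and 3720 in the clones. Both were higher in vector 1 and MTf 6 than in vector 2 and MTf 4, as were Hells and Ezh2. Of 20 tested genes of the list 14 were lower in vector 2 than in vector 1 and 13 higher in MTf 6 than in MTf 4, while 6 were higher and 14 lower in the clones than in the vector lines. Over all tested probe sets 51.6% were higher in vector 2 than in vector 1, 45.6% higher in MTf 6 than in MTf 4, and 48.7% higher in the clones than in the vector lines. Of the 20 tested genes of the list, 0 were called by limma and 0 had an unadjusted p under 0.05. The smallest unadjusted p-values belonged to Ezh2, a histone methylase of the Polycomb complex (log2 difference -0.42), Ctcf, the insulator protein of imprinted control regions (-0.19), Tet2, a demethylating enzyme (-0.26), and Dnmt3l (-0.31).

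In the insulin-like growth factor pathway, the receptors Igf1r and Insr and some binding proteins were expressed, while Igf2 was near the silent level. Igfbp4, Igfbp6 and Igfbp7 were above the level on all 4 arrays and Igfbp5 on 3, and Igfbp1, Igfbp2, Igfbp3 and Igfals were above it on none. Igf1r, the receptor that Igf2 signals through, was at 2853 and 2969 in the vector lines and 4123 and 2484 in the clones. Irs1, its adaptor, lay between 6955 and 9433, and Igfbp6, a binding protein that prefers Igf2, was at 6441 and 9128 in the vector lines and 11365 and 5533 in the clones. Igf1 was highest in vector 2, at 176 and 619 in the vector lines and 308 and 215 in the clones. MTf 4 was highest for Igf1r and Igfbp6, and MTf 6 lowest. Of 18 measured genes 10 (55.6%) had a probe set above the silent level on all 4 arrays, against 50.7% of all genes. Of 12 tested, 6 were higher and 6 lower in the clones, and 0 were called by limma or had an unadjusted p under 0.05. The smallest unadjusted p-values were those of the binding proteins Igfbp5 (log2 difference -0.44) and Igfbp7 (-0.28), the kinase Akt1 (-0.28) and Igf1 (-0.35).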

How the data were processed

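Total RNA of 4 cell lines was measured, with 1 array each. The values are signal intensities, 1 per probe set and array, which the authors computed in GCOS 1.3, as the submitters' processing notes name it. The settings of GCOS are not stated there. All 4 arrays had a 2%-trimmed mean of 1000.01, so the deposited intensity values were used without rescaling. Of 45101 probe sets, 64 were controls; 34945 of the others were paired with 1 gene by the platform annotation, 932 with several and 9160 were unnamed here. All 35 listed genes were found in the GRCm38.p6 gene table.

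Signals were converted to log2(signal + 32), and every log2 difference or fold is on that scale, which shrinks changes of low signals. The upper part of the table by mean, from the median over non-control probe sets upward, held 22519 probe sets, which were tested by limma 3.58.1 (R 4.3.3, trended eBayes) together, MTf minus vector, with Benjamini-Hochberg adjustment at 0.05. With 2 arrays per group the smallest exact two-sided permutation p is 0.333. The scripts were tested on simulated data. The number of arrays limits the precision. The files hold no detection calls, so olfactory and vomeronasal receptor probe sets set the silent level.

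The genes and lists were chosen with earlier results of these data known. Named genes were all listed genes, and from the other lists those with the smallest p or the highest mean. Others were named after their values were seen. Named for their role were Zfp57, Dnmt1, Hells, Tnfrsf23, Nap1l4, Herc3, Insr and the binding proteins not named by p or mean. So were the probe sets shared with Snurf or Mir675 and the cell type markers. Dnmt3a and Tet3 were named for their low signal, and the 1 called probe set for its call. Alternatives covered the offset, filter, scaling, variance model, silent level and each array left out.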

Additional observations from a re-analysis of the deposited data

How the results depend on the processing

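No imprinted probe set was called under any alternative run, each array left out included. Over all probe sets the single call was lost without the filter, without the trend and without variance moderation (0 each), and with 1 array left out there were 2 to 21 calls, 21 of them without MTf 4, 7 without MTf 6, 3 without vector 2 and 2 without vector 1. Such fits hold 1 array in a group, which is assumed to vary like the other group. Without the filter, 21 imprinted probe sets had groups that did not overlap, 21 differed at least 2-fold between the clones and 24 between the vector lines; with a filter at the lower quartile the last pair of counts was 8 and 12, and after quantile normalization 0 differed between the clones. Of the 67 probe sets added without the filter, 6 exceeded the silent level on any array. With the 99th percentile as silent level, 9 genes were above it in MTf 6, and 7 on all 4 arrays, without Mcts2 and Meg3. With the array median 10 were above it on all 4 arrays, with Magel2 added. With only probe sets whose names carry no letter mark (such as _a, _s or _x) 6 were, without Meg3, Slc22a18 and Tssc4. For Slc22a18 and Tssc4 this left out 1427531_a_at and 1427661_a_at, which were above the level on all 4 arrays. With an offset of 16 the log2 difference of Magel2 turned to -0.001. With 1 array left out, 11 of the 13 imprinted genes tested and 5 of the 12 other genes named for their p took either sign, so their group difference has no settled direction. One of these is Igf2, whose probe set did not pass the filter without MTf 4 and was not fitted there, and whose difference of group means was then -0.15; its fitted values ran from 0.034 to 0.36. The ranges of the other log2 differences were -0.045 to 0.31 for Igf2r, -0.085 to 0.26 for Mest, -0.60 to 0.64 for Slc22a18, -0.18 to 0.13 for Tssc4, -0.16 to 0.25 for Cd81, -0.38 to 0.38 for Magel2, -0.11 to 0.39 for Ube3a, -0.066 to 0.28 for Gnas, -0.23 to 0.35 for Mcts2, -0.23 to 0.16 for Impact, -0.51 to 0.002 for Pon3, -0.52 to 0.007 for Tet2, -0.63 to 0.003 for Dnmt3l, -0.57 to 0.004 for Igfbp7 and -1.17 to 0.47 for Igf1. No paired analysis was possible because the 2 groups share no replicate number. The precision of these values is limited by 2 arrays per group, and probe sets near the silent level have no settled state.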
